A study of Mus musculus with 8 samples.

Results

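The change from the seeding state to the blastoid was read from 1 pair of mouse RNA-seq libraries, Type I blastoids on day 5 against T09-treated expanded potential stem cells. Of the 24888 genes in the count table, the 14378 with 20 or more counts in 1 of the 2 libraries were compared, using 2 of the 8 libraries of the study. Blastoids are stem cell aggregates that take on the form of a blastocyst, the embryo at implantation. Type I blastoids came from expanded potential stem cells (EPSC) labelled as treated with T09, seeded at 5 cells per microwell in AggreWell plates and picked by hand on day 5. Their first medium held FGF4, heparin, CHIR99021 and Y-27632, and the complete medium that followed kept FGF4, heparin and CHIR99021 and added BMP4 and A83-01, an inhibitor of activin and TGF-beta receptors. The labels list no T09 in either medium and give no dose or duration for the EPSC that were seeded. The T09-treated EPSC library, written T09-EPSC below, came from EPSC given T0901317, an agonist of the liver X receptors (LXR), for 3 days with the dose written as 1 uM/mL, so that the molar concentration is not certain. All groups used here go back to the E14 embryonic stem cell line, kept for 5 passages in EPSC medium with LIF, CHIR99021, PD0325901, JNK Inhibitor VIII, SB203580, A-419259 and XAV939. Type III day 5 blastoids, labelled like Type I apart from the type, untreated EPSC and day 2 blastoids labelled siNT, from the knockdown arm, are set beside them for single genes. The siNT blastoids are labelled with 48 hours after transfection, and their source label does not name T09. They cannot be read as day 2 of the Type I blastoids. Each group was 1 library with no replicate. Time, aggregation, hand picking, the change of basal medium and the factors added only to the blastoid media cannot be told apart in this comparison. The same holds for the absence of LIF, PD0325901, XAV939 and the other inhibitors of EPSC medium, and of T09 from the listed blastoid media.

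At implantation the mouse embryo holds an epiblast, which forms the body, a trophectoderm, which forms the placenta, and a primitive endoderm, which becomes visceral and parietal endoderm. Visceral endoderm takes up and secretes nutrients and lipoproteins for the embryo, and parietal endoderm lays down a thick basement membrane of laminin and type IV collagen. Naive stem cells are held by LIF and STAT3 and by blocking ERK, while Wnt, BMP, Nodal and FGF signals steer lineage choice and axis formation.

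Levels are given as CPM, counts scaled to a common library size, and differences as the log2 ratio of Type I blastoids over T09-EPSC after adding a prior count of 2. A gene is written as higher or lower when the ratio was at least 2-fold and its 95% exact interval excluded a ratio of 1. With 1 library a side the interval covers counting error only and not the spread between cultures. Since reads are not independent molecules, it may be too narrow even for counting error. The libraries held 37181849 counts for Type I blastoids and 40781415 counts for T09-EPSC, against 24666260 to 40781415 in the study, so that 3 counts, the limit used for a gene with 0, stood for 0.0836 and 0.0741 CPM. In bulk RNA fewer cells of a type and less RNA per cell cannot be told apart.

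Of the 14378 genes, 3266 (22.7%) were higher and 2602 (18.1%) were lower in Type I blastoids, with a median log2 ratio of -0.03. The change was large for many of them, since 1106 genes were at least 8-fold higher and 755 at least 8-fold lower. Some genes were seen on 1 side only, 227 of the higher genes with 0 counts in T09-EPSC and 224 of the lower genes with 0 counts in Type I blastoids. At the count threshold, 67.2% of the 61 genes with exactly 20 counts in the fuller library were called, and 66.2% of the 74 genes with 19 counts would have been. Among the 42 of 45 gene lists with 10 or more tested members, endoderm, placental, Hox and YAP genes held the highest shares of higher members, and pluripotency, germline and DNA methylation genes the highest shares of lower ones. Of 41 ribosomal protein genes, 40 were not called. The shares over all genes, 22.7% higher and 18.1% lower, are the background for each count of list members given below.

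**Figure D1:**
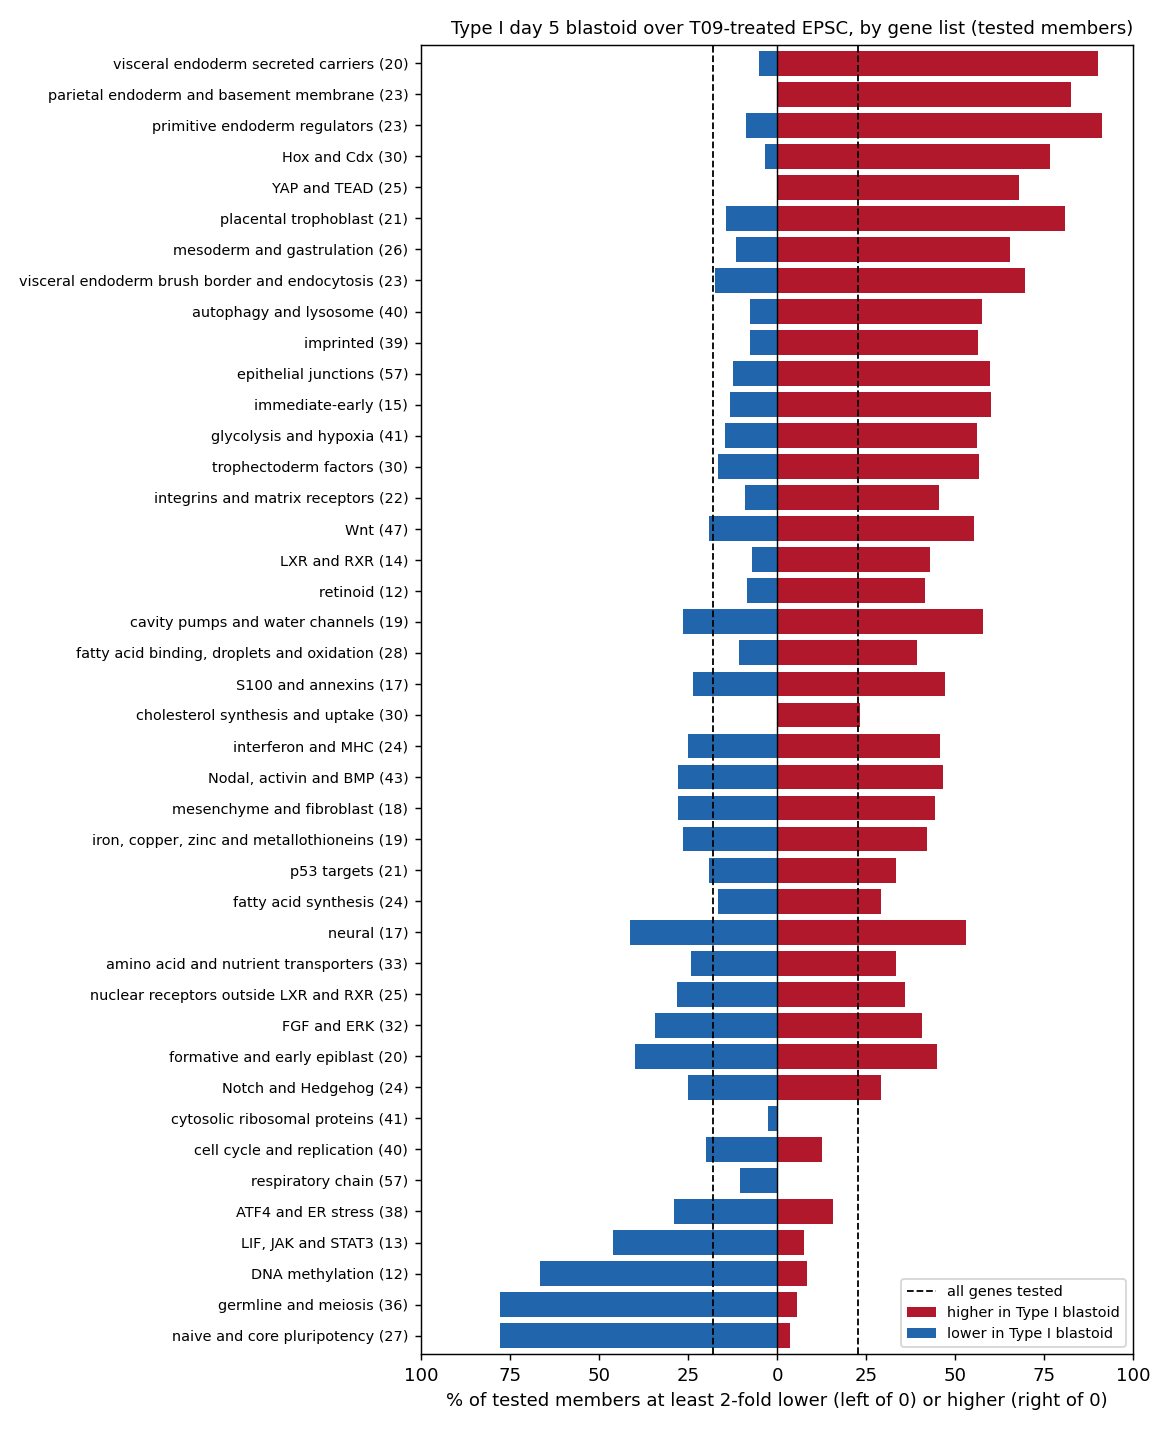
Share of tested members (x axis, %) that were lower (blue, left of 0) or higher (red, right of 0) in Type I blastoids than in T09-EPSC, for the 42 gene lists with 10 or more tested members, given in brackets. Dashed lines mark all 14378 genes, 18.1% lower and 22.7% higher; primitive endoderm regulators reached 91.3% higher and naive and core pluripotency genes 77.8% lower.

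Cell type markers were compared between the 2 libraries. They could not check the Type I label, since primitive endoderm markers also summed to 1125 CPM in Type III blastoids. All 6 epiblast markers were lower, and all 7 primitive endoderm and all 5 visceral endoderm markers were higher. The epiblast markers still summed to 304 CPM in Type I blastoids, against 4054 CPM in T09-EPSC, so their transcripts were fewer but still counted in the blastoid. The primitive endoderm markers summed to 1604 CPM in Type I blastoids and 17.6 CPM in T09-EPSC. Of the 8 trophectoderm markers, Cdx2, Eomes, Gata2, Krt8 and Krt18 were higher, Tfap2c was lower, Gata3 was not called and Elf5 had under 20 counts. The parietal endoderm markers summed to 5854 CPM in Type I blastoids and 449 CPM in T09-EPSC, with 3 of 3 tested higher and Thbd under 20 counts. Of the blood markers 3 of 3 tested were higher, summing to 35.4 CPM in Type I blastoids and 0.0741 CPM in T09-EPSC, while the leukocyte gene Ptprc had under 20 counts. Of the mesoderm markers 1 of 2 tested was higher (26.2 CPM in Type I blastoids and 1.21 CPM in T09-EPSC), with Mesp1 under 20 counts. Of the fibroblast markers 2 of 3 tested were higher (5.27 CPM in Type I blastoids and 1.70 CPM in T09-EPSC), with Col3a1 and Postn under 20 counts. Untreated EPSC held 3.67 CPM of the fibroblast markers, and against it Thy1, higher here, had a log2 ratio of -0.015 while Col1a2 had 2.71. All 3 neural markers, Sox1, Pax6 and Tubb3, were lower. The wider neural list went both ways, with 4 of 7 tested factors higher and 3 lower, and 5 of 10 neuronal genes higher and 4 lower.

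**Figure D2:**
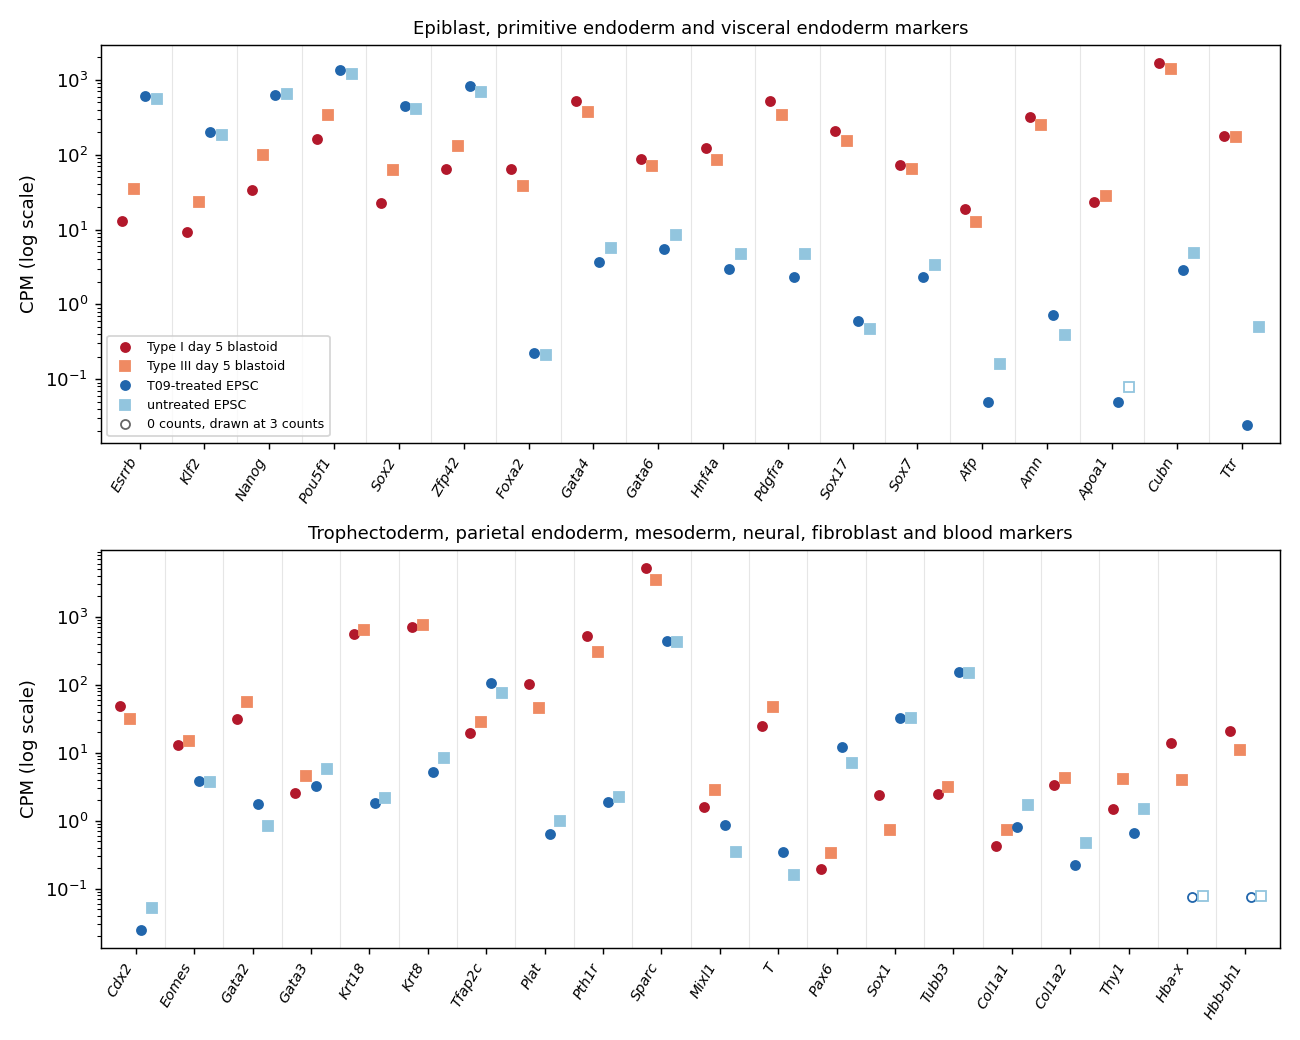
CPM (log y axis) of cell type markers in Type I and Type III day 5 blastoids, T09-treated EPSC and untreated EPSC, 1 library each, with open symbols for 0 counts drawn at 3 counts. Epiblast markers lie lower and primitive and visceral endoderm markers higher in both blastoid libraries than in both EPSC libraries, with Gata4 at 523 CPM in Type I blastoids and 3.71 CPM in T09-EPSC.

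Pluripotency genes fell. Of 27 naive and core pluripotency genes, 21 were lower, 1 was higher and 5 were not called, with a median log2 ratio of -3.04. Pou5f1, the factor shared by all pluripotent cells, had 159.8 CPM in Type I blastoids against 1344 CPM in T09-EPSC (log2 ratio -3.07, 95% interval -3.11 to -3.03). Type III blastoids held 336 CPM and day 2 siNT blastoids 993 CPM of Pou5f1, values between the 2 libraries compared. Sox2 (log2 ratio -4.29) and Nanog (-4.20) were lower by more than Pou5f1. Among naive factors the orphan receptor gene Esrrb had 13.1 CPM in Type I blastoids against 610.1 CPM in T09-EPSC (log2 ratio -5.53), and Prdm14, a repressor that holds the naive state and is needed for germ cells, had 0.724 CPM in Type I blastoids against 37.9 CPM in T09-EPSC (log2 ratio -5.61). The lowest ratio of the list was that of Tcl1, a co-activator of the AKT kinase, with 1.28 CPM in Type I blastoids against 92.2 CPM in T09-EPSC (log2 ratio -6.11, 95% interval -6.62 to -5.75). Klf4, Klf5, Tbx3 and Sall4 were not called (-0.86 to -0.14), although all are used as pluripotency genes, and each is also expressed outside the epiblast. Dppa3, also used as a germ cell marker, was not called either (0.52). Lin28a, which blocks let-7 processing, was the 1 higher gene, with 657 CPM in Type I blastoids against 156 CPM in T09-EPSC (log2 ratio 2.07). The median was -3.35 over the 16 naive genes and -2.83 over the 11 core genes. Relative to Type III blastoids, 16 of these 27 genes were lower in Type I blastoids and 0 were higher, where 7.68% of 13907 genes were called in that comparison, 5.75% lower and 1.93% higher.

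Formative genes, which rise as the epiblast leaves the naive state, split. Of 20, 9 were higher, 8 lower and 3 not called. The epiblast factor gene Otx2 had 9.25 CPM in Type I blastoids against 29.4 CPM in T09-EPSC (log2 ratio -1.66), and Foxd3 had 1.17 CPM in Type I blastoids against 17.5 CPM in T09-EPSC (log2 ratio -3.84). The cadherin gene Cdh2 had 13.8 CPM in Type I blastoids against 1.66 CPM in T09-EPSC (log2 ratio 3.02), and the carbonic anhydrase gene Car14 had 16.3 CPM in Type I blastoids against 0.296 CPM in T09-EPSC (log2 ratio 5.55). Fgf5, the classic marker of the formative epiblast, was higher but low in both libraries, with 43 counts in Type I blastoids against 10 in T09-EPSC (log2 ratio 2.06, 95% interval 1.26 to 3.44). Of 9 tested genes of the 2-cell-like state, a rare state of stem cell cultures, 7 were higher and 0 lower. Over all 14378 genes 22.7% were higher and 18.1% lower. Arg2, Usp17le, Zscan4a, Zscan4b and Zscan4f had only 3 to 18 counts in T09-EPSC and were compared only through their counts in Type I blastoids. A further 8 listed genes outside the Zscan4 cluster had under 20 counts in both libraries. The count of higher genes is therefore shaped by the filter. All 5 tested Zscan4 genes, near-identical copies whose counts are uncertain, were higher, and they summed to 7.91 CPM in Type I blastoids and 1.98 CPM in T09-EPSC. With untreated EPSC in place of T09-EPSC, Zscan4a (0.27) and Zscan4b (0.86) were not called. The 5 genes summed to 23.6 CPM in Type III and 74.0 CPM in day 2 siNT blastoids.

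Most germline genes and most enzymes of DNA methylation fell as well. Of 36 germline and meiosis genes, 28 were lower and 2 higher (median -2.03). Stra8, the retinoic acid response gene that gates meiosis, had 0.195 CPM in Type I blastoids against 109 CPM in T09-EPSC (log2 ratio -8.78, 95% interval -10.44 to -8.08). The RNA-binding germ cell gene Dazl had 0.919 CPM in Type I blastoids against 159 CPM in T09-EPSC (log2 ratio -7.35), and the piRNA-pathway helicase-like gene Tdrd9 had 0 counts in Type I blastoids against 41 in T09-EPSC, at least 12.1-fold lower. Ddx4, another germ cell helicase gene, was not called (19.2 CPM in Type I blastoids and 16.6 CPM in T09-EPSC). Of 12 DNA methylation genes 8 were lower, 1 was higher and 3 were not called. The dioxygenase genes Tet1 and Tet2 fell by 3.10 and 3.33 on the log2 scale, whereas Tet3 was the 1 higher gene, with 64.4 CPM in Type I blastoids against 22.3 CPM in T09-EPSC (log2 ratio 1.53). Against untreated EPSC the log2 ratio of Tet3 was 0.93, under the threshold. The maintenance methyltransferase Dnmt1 had 245 CPM in Type I blastoids against 511 CPM in T09-EPSC (log2 ratio -1.06), and its partner Uhrf1 had 268 CPM in Type I blastoids against 868 CPM in T09-EPSC (log2 ratio -1.70). The de novo enzymes Dnmt3a (-0.71) and Dnmt3b (0.84) were not called, and their cofactor gene Dnmt3l had 38.6 CPM in Type I blastoids against 136 CPM in T09-EPSC (log2 ratio -1.81). Trim28 and Zfp57, which protect imprints, were lower (-1.58 and -2.73). Relative to Type III blastoids, 14 of 29 germline genes tested there were lower in Type I blastoids and 0 higher. Of all 13907 genes tested there, 5.75% were lower and 1.93% higher.

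Primitive endoderm regulators rose almost as a whole. Of 23 tested, 21 were higher and 2 lower, with a median log2 ratio of 5.34 and Cer1 under 20 counts. The lineage factor Gata4 had 523 CPM in Type I blastoids against 3.71 CPM in T09-EPSC (log2 ratio 7.12, 95% interval 6.91 to 7.38), and Gata6 had 87.2 CPM in Type I blastoids against 5.51 CPM in T09-EPSC (log2 ratio 3.97, 95% interval 3.79 to 4.19). Both EPSC libraries already held some Gata6, with 5.51 CPM in T09-EPSC and 8.51 CPM in untreated EPSC. Sox17, needed to keep the endoderm fate, had 208 CPM in Type I blastoids against 0.593 CPM in T09-EPSC (log2 ratio 8.33). Foxa2 had 65.1 CPM in Type I blastoids against 0.222 CPM in T09-EPSC (log2 ratio 7.89), and the liver-type factor gene Hnf4a had a log2 ratio of 5.34. Each of these factors had counts in T09-EPSC and a ratio far above the 2-fold threshold. The platelet-derived growth factor receptor gene Pdgfra, a surface marker of primitive endoderm, had 524 CPM in Type I blastoids against 2.32 CPM in T09-EPSC (log2 ratio 7.79). The transcriptional co-regulator Cited1 had 387 CPM in Type I blastoids against 0.642 CPM in T09-EPSC (log2 ratio 9.12), the furthest up of the regulators. Hhex, a factor of the anterior visceral endoderm, was lower, with 5.35 CPM in Type I blastoids against 12.6 CPM in T09-EPSC (log2 ratio -1.23), and so was Tdh, a threonine-catabolic enzyme gene of naive stem cells (-1.15).

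Lipoprotein and carrier genes of visceral endoderm mostly rose too. Of 20 tested genes of this list, 18 were higher and 1 was lower (median 6.78), with 5 more under 20 counts, among them albumin (Alb). The list also holds genes of proteins that act inside the cell, namely Mttp, Soat2, Fabp1 and the lysosomal protease gene Ctsh. Apob, the structural protein of large lipoproteins, had 972 CPM in Type I blastoids against 0.445 CPM in T09-EPSC (log2 ratio 10.93, 95% interval 10.43 to 11.85). Mttp, which loads lipid onto Apob, had 346 CPM in Type I blastoids and 2.64 CPM in T09-EPSC. Transthyretin (Ttr), a carrier of thyroid hormone and retinol-binding protein, had 6322 counts in Type I blastoids against 1 in T09-EPSC (log2 ratio 11.16, 95% interval 10.32 to 18.10). Its partner, the retinol carrier gene Rbp4, had 222 CPM in Type I blastoids against 0.593 CPM in T09-EPSC (log2 ratio 8.42). Alpha-fetoprotein (Afp) had 669 counts in Type I blastoids against 2 in T09-EPSC (log2 ratio 7.52, 95% interval 6.70 to 11.61), and Apoa4 had 650 counts in Type I blastoids against 0 in T09-EPSC, at least 244-fold higher. Apoe, made by many cell types, had 3598 CPM in Type I blastoids against 786 CPM in T09-EPSC (log2 ratio 2.19). Apoc1 was not called (-0.14). The clotting protein gene Fgb had 331 counts in Type I blastoids against 0 in T09-EPSC, at least 124-fold higher.

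Uptake and brush border genes of visceral endoderm mostly rose, with 16 of 23 higher and 4 lower. The receptor gene Cubn, which takes up vitamin B12 complexes and proteins, had 1697 CPM in Type I blastoids against 2.84 CPM in T09-EPSC (log2 ratio 9.20), and its membrane partner Amn had 318 CPM in Type I blastoids against 0.716 CPM in T09-EPSC (log2 ratio 8.69). Their co-receptor Lrp2 was present before seeding, with 936 CPM in Type I blastoids against 113 CPM in T09-EPSC (log2 ratio 3.05). The adaptor gene Dab2 had 1469 CPM in Type I blastoids against 9.36 CPM in T09-EPSC (log2 ratio 7.29). In the brush border, the bundler gene Vil1 had 34.8 CPM in Type I blastoids against 0.247 CPM in T09-EPSC (log2 ratio 6.86), and the surface protease gene Tmprss2 had 201 CPM in Type I blastoids against 0.346 CPM in T09-EPSC (log2 ratio 8.98). The peptidase gene Anpep, the sugar transporter gene Slc5a1, the motor gene Myo1a and the receptor gene Lrp1 were the 4 lower genes (-2.35 to -1.15). Day 2 siNT blastoids stood apart among these genes, with Cubn at 1125 CPM but Tmprss2 at 7.34 CPM and Rbp4 at 3.35 CPM.

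Basement membrane genes rose with 19 of 23 higher and 0 lower (median 4.12). Type IV collagen forms the network of this membrane. Col4a1 had 15509.6 CPM in Type I blastoids against 202 CPM in T09-EPSC (log2 ratio 6.26, 95% interval 6.23 to 6.30), and Col4a2 had 7489.9 CPM in Type I blastoids against 85.6 CPM in T09-EPSC (log2 ratio 6.45). The 4 tested type IV collagen chains and 3 collagen-processing genes summed to 25688 CPM in Type I blastoids and 413 CPM in T09-EPSC. Type III blastoids, with 13054 CPM for the same 7 genes, stood between them. The collagen chaperone gene Serpinh1 had 1913 CPM in Type I blastoids against 99.3 CPM in T09-EPSC (log2 ratio 4.27), and the proline hydroxylase gene P4ha1 had 715 CPM in Type I blastoids against 21.7 CPM in T09-EPSC (log2 ratio 5.04). Laminin chains rose unevenly, Lamb1 with 2501 CPM in Type I blastoids against 44.6 CPM in T09-EPSC (log2 ratio 5.81), Lama1 with a log2 ratio of 4.12 and Lamc1 with 1.48. The linkers and proteoglycans Nid1, Nid2, Hspg2 and Agrn were not called (-0.05 to 0.78). Among parietal endoderm genes, the hormone receptor gene Pth1r had 521 CPM in Type I blastoids against 1.9 CPM in T09-EPSC (log2 ratio 8.06), and the plasminogen activator gene Plat had 104 CPM in Type I blastoids against 0.642 CPM in T09-EPSC (log2 ratio 7.22). Of 22 integrins and other matrix receptors 10 were higher and 2 lower, with Itgav higher (1.37). The hyaluronan receptor gene Cd44 was higher, with 12.8 CPM in Type I blastoids against 0.0988 CPM in T09-EPSC (log2 ratio 6.41), and its fellow receptor gene Itgb3 was lower, with 1.76 CPM in Type I blastoids against 14.5 CPM in T09-EPSC (log2 ratio -3.01). Itgb1, the common partner of most of them, was just short of the 2-fold threshold (0.97).

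Trophectoderm genes rose as a group, with exceptions among the best known. Of 30 tested factors, 17 were higher, 5 lower and 8 not called (median 1.89). Cdx2, which sets the lineage apart from the epiblast, had 1729 counts in Type I blastoids against 1 in T09-EPSC (log2 ratio 9.29, 95% interval 8.45 to 16.23). Gata2 had 31.7 CPM in Type I blastoids against 1.75 CPM in T09-EPSC (log2 ratio 4.14), whereas Gata3 had 2.51 CPM in Type I blastoids against 3.19 CPM in T09-EPSC (log2 ratio -0.34, 95% interval -0.75 to 0.05) and was not called. Tfap2c was lower, with 19.5 CPM in Type I blastoids against 104 CPM in T09-EPSC (log2 ratio -2.42), and Tead4 was not called (0.69). Eomes, used in trophoblast stem cells and in primitive endoderm and mesoderm, had 468 counts in Type I blastoids against 153 in T09-EPSC (log2 ratio 1.77, 95% interval 1.52 to 2.06). The BMP-responsive homeobox genes Msx1 and Msx2 had log2 ratios of 6.86 and 7.30, and the related Dlx3 had 3.40. Grhl3 and Sox21 were lower (-2.55 and -1.67). Hand1, a factor of giant cells and of mesoderm, was higher (log2 ratio 4.82, 95% interval 3.94 to 8.90), at 2.81 CPM in Type I blastoids, 0.0494 CPM in T09-EPSC and 16.3 CPM in Type III blastoids.

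Markers of mature placental cells were mostly out of reach of the counts. Of 37 placental genes, 21 were tested, and 17 of those were higher and 3 lower. Of the 16 giant cell and hormone genes 14 had under 20 counts in both libraries, including all 5 listed prolactin genes and all 6 listed placental cathepsin genes. The steroid-making enzyme gene Cyp11a1 was lower, with 0.836 CPM in Type I blastoids against 13.2 CPM in T09-EPSC (log2 ratio -3.90). Among labyrinth and junctional genes, the fusion gene Synb had 56 counts in Type I blastoids against 0 in T09-EPSC, at least 21.1-fold higher, and the retrotransposon-derived gene Peg10 had 2221 CPM in Type I blastoids against 224 CPM in T09-EPSC (log2 ratio 3.31). The VEGF receptor gene Flt1, also used in endothelium and visceral endoderm, had 340.0 CPM in Type I blastoids against 0.296 CPM in T09-EPSC (log2 ratio 9.93). Relative to Type III blastoids, 7 of the 21 placental genes were lower in Type I blastoids and 0 higher. Of all 13907 genes tested there, 5.75% were lower and 1.93% higher. Simple epithelial keratins, filament proteins of trophectoderm and of endoderm alike, rose in 4 of 4 tested. Krt8 had 717 CPM in Type I blastoids against 5.11 CPM in T09-EPSC (log2 ratio 7.12), and Krt18 had 553 CPM in Type I blastoids against 1.8 CPM in T09-EPSC (log2 ratio 8.22). Of 3 stratified keratins 2 were lower, Krt42 with 0 counts in Type I blastoids against 1974 in T09-EPSC, at least 583-fold lower, and Krt17 with 2 counts in Type I blastoids against 451 in T09-EPSC (log2 ratio -6.69, 95% interval -10.69 to -5.78).

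Junction genes of epithelia mostly rose. Of 57 tested, 34 were higher and 7 lower (median 1.35). Of 18 listed claudins and other tight junction genes 14 were higher and 0 lower. Over all 12 tested claudin symbols, those outside the list included, 7 were higher and 3 lower, the lower ones, chosen after their values were seen, being Cldn11, Cldn19 and Cldn34c1. The junction gene Jam2, also outside the list, was lower as well (-7.16). Cldn6 had 937 CPM in Type I blastoids against 2.59 CPM in T09-EPSC (log2 ratio 8.47), occludin (Ocln) had 87.8 CPM in Type I blastoids against 2.69 CPM in T09-EPSC (log2 ratio 5.00), and the scaffold gene Cgn had 154 CPM in Type I blastoids against 20.4 CPM in T09-EPSC (log2 ratio 2.92). Tjp1, a scaffold already present in EPSC, was not called (0.85), nor was the adherens junction cadherin Cdh1 (0.35). Of 8 connexins 3 were higher and 5 lower. Gja1 had 784 CPM in Type I blastoids against 44.1 CPM in T09-EPSC (log2 ratio 4.15), and Gjb2 had 11.7 CPM in Type I blastoids against 0.198 CPM in T09-EPSC (log2 ratio 5.56), while Gjb5 had 4.99 CPM in Type I blastoids against 47.4 CPM in T09-EPSC (log2 ratio -3.24). Polarity genes were higher in 11 of 19 and lower in 2, Crb3 with 49.1 CPM in Type I blastoids against 0.642 CPM in T09-EPSC (log2 ratio 6.14) and its partner Patj with 151 CPM in Type I blastoids against 4.18 CPM in T09-EPSC (log2 ratio 5.16). The epithelial splicing factor gene Esrp1 had 51.3 CPM in Type I blastoids against 0.568 CPM in T09-EPSC (log2 ratio 6.37). The atypical kinase gene Prkci and Llgl2 were lower (-1.34 and -1.02).

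Members also moved in opposite directions among the pumps and channels that fill a blastocyst cavity. Of 19 tested, 11 were higher and 5 lower. The Na,K-ATPase subunit Atp1b1, the beta subunit of the blastocyst pump, had 443 CPM in Type I blastoids against 173 CPM in T09-EPSC (log2 ratio 1.35). Another beta subunit gene, Atp1b2, was lower, with 3.68 CPM in Type I blastoids against 56.0 CPM in T09-EPSC (log2 ratio -3.91). The water channel gene Aqp3 fell to 2.76 CPM in Type I blastoids, against 376 CPM in T09-EPSC (log2 ratio -7.06, 95% interval -7.39 to -6.81). Aqp8 took the opposite course, with 114 CPM in Type I blastoids against 0.544 CPM in T09-EPSC (log2 ratio 7.58), and Aqp11 had 18.8 CPM in Type I blastoids against 3.24 CPM in T09-EPSC (log2 ratio 2.52). The ion cotransporter gene Slc12a2 had 223 CPM in Type I blastoids against 72.8 CPM in T09-EPSC (log2 ratio 1.62).

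Promoters are shown next for genes of 3 pathways whose short binding words were searched, because each gene was higher and holds the word. The promoters are RefSeq sequences of build GRCm38.p6, 250 bases before to 50 after the first listed start of each gene, 5′ to 3′ along the gene, while the submitters' processing notes name mm9. They were found for 11183 of the 14378 genes. Capitals mark GGAATG, the core word of TEAD factors, on either strand, in the promoters of 2 YAP targets, Ankrd1 (chr19:36119795-36120094, minus strand) and Crim1 (chr17:78199998-78200297, plus strand).

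Ankrd1: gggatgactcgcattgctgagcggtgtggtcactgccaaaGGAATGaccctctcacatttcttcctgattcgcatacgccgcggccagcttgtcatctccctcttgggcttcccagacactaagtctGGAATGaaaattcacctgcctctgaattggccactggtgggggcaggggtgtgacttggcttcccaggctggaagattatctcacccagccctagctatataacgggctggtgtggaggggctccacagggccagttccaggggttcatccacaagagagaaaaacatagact

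Crim1: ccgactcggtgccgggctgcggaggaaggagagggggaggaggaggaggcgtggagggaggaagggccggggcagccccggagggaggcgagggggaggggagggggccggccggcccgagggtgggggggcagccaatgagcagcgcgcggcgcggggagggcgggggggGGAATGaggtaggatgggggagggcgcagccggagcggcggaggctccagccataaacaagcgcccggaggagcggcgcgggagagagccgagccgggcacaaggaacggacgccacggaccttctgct

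Capitals mark CTTTGAA on either strand in the promoter of T (brachyury, chr17:8434173-8434472, plus strand), here on the opposite strand, and CTTTGAT in that of Sp5 (chr2:70474673-70474972, plus strand), both words of TCF and LEF factors, which carry Wnt signals.

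T: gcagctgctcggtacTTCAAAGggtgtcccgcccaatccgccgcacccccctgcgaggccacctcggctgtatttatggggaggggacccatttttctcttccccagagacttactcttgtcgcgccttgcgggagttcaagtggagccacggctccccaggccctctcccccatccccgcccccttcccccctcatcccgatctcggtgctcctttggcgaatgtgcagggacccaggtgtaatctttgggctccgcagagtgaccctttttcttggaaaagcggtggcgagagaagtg

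Sp5: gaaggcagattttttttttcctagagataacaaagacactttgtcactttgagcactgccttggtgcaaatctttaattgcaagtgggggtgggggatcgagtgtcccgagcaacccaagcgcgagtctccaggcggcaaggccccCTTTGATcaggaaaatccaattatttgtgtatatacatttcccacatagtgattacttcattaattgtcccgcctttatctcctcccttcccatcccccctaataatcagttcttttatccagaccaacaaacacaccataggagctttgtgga

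Capitals mark ACGTG, the core word of hypoxia-inducible factors, on either strand in the promoters of Ldha (chr7:46845554-46845853, plus strand), in 3 stretches, and Bnip3 (chr7:138909457-138909756, minus strand), in 1 stretch. In CACGTG the matches of the 2 strands overlap.

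Ldha: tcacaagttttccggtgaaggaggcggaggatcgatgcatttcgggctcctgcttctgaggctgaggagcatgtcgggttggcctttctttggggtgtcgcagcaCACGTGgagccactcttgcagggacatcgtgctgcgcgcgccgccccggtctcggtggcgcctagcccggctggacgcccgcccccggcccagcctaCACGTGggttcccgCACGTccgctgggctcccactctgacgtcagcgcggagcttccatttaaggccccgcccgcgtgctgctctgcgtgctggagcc

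Bnip3: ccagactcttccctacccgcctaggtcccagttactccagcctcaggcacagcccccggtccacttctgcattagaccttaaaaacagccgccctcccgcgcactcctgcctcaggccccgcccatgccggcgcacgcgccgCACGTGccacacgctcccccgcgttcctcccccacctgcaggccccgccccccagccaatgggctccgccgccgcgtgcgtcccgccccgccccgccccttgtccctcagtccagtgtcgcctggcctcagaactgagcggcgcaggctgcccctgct

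YAP and TEAD genes, which read cell contact and shape and are needed for trophectoderm, rose in 17 of 25 with 0 lower (median 1.83). The angiomotin gene Amot, a junction protein that holds YAP back, changed most, with 657 CPM in Type I blastoids against 2.22 CPM in T09-EPSC (log2 ratio 8.17). Its relatives Amotl1 and Amotl2 and the kinase gene Lats2 were higher (1.07, 1.83 and 2.56). The co-activator gene Yap1 was not called (203 CPM in Type I blastoids and 182 CPM in T09-EPSC), whereas its relative Wwtr1 had 88.7 CPM in Type I blastoids against 34.3 CPM in T09-EPSC (log2 ratio 1.37). Of 8 targets, 7 were higher. Ctgf had 46.2 CPM in Type I blastoids against 9.51 CPM in T09-EPSC (log2 ratio 2.27), Cyr61 had 86.4 CPM in Type I blastoids against 18.5 CPM in T09-EPSC (log2 ratio 2.22), and Crim1, whose promoter is printed above, had 99.5 CPM in Type I blastoids against 2.67 CPM in T09-EPSC (log2 ratio 5.19). Ankrd1, with 2 TEAD words, had 34 counts in Type I blastoids against 0 in T09-EPSC, at least 12.8-fold higher. A TEAD word was present in 60% of the 20 list members with a promoter, in 71.4% of the 14 higher members among them, and in 12.3% of all 11183 promoters. The list was made of YAP and TEAD genes, so a share above that of all promoters can come from that choice. Untreated EPSC held 25.3 CPM of Ctgf and 39.2 CPM of Cyr61, between the 2 libraries compared, so part of these 2 differences rested on the T09-EPSC library. Of 23 YAP and TEAD genes tested between T09-EPSC and untreated EPSC, 3 were lower in T09-EPSC and 0 higher. Over all 13632 genes tested there, 3.29% were lower and 0.895% higher.

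Wnt ligands and targets mostly rose. Of 47 tested, 26 were higher and 9 lower (median 2.02). Of 10 tested ligands, 9 were higher. Wnt11 had 58.6 CPM in Type I blastoids against 0.173 CPM in T09-EPSC (log2 ratio 8.02), and Wnt3, which starts the primitive streak, had 5.1 CPM in Type I blastoids against 0.0988 CPM in T09-EPSC (log2 ratio 5.09). Wnt3a was the 1 lower ligand, with 0.195 CPM in Type I blastoids and 0.544 CPM in T09-EPSC. Of the targets and feedback genes 9 of 15 were higher and 2 lower. The feedback gene Axin2 had 50.3 CPM in Type I blastoids against 4.47 CPM in T09-EPSC (log2 ratio 3.48), and Sp5 had 621 counts in Type I blastoids against 3 in T09-EPSC (log2 ratio 7.10, 95% interval 6.31 to 10.15). The ligase gene Rnf43, which removes Wnt receptors, had 11.2 CPM in Type I blastoids against 0.124 CPM in T09-EPSC (log2 ratio 6.00), and the stem cell receptor Lgr5 had 93 counts in Type I blastoids against 0 in T09-EPSC, at least 35.0-fold higher. Ccnd1, often listed as a Wnt target, was lower (-1.75). Of 8 secreted inhibitors 2 were higher and 5 lower. Sfrp1 had 5.18 CPM in Type I blastoids against 151 CPM in T09-EPSC (log2 ratio -4.85) and Notum had 4.6 CPM in Type I blastoids against 28.6 CPM in T09-EPSC (log2 ratio -2.63), while Dkk1 had 68.4 CPM in Type I blastoids against 0.568 CPM in T09-EPSC (log2 ratio 6.79) and Frzb had 37.1 CPM in Type I blastoids against 0.173 CPM in T09-EPSC (log2 ratio 7.37). Of 14 receptor genes 6 were higher, and Fzd5 was the 1 lower, with 25.3 CPM in Type I blastoids against 178 CPM in T09-EPSC (log2 ratio -2.81). In the Wnt list, CTTTGAA was present in 2 of 30 promoters and CTTTGAT in 2, against 3.6% and 2.47% of all promoters.

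FGF and ERK genes gave no common direction, with 13 of 32 higher and 11 lower. Fgf4, the epiblast ligand, had 9.72 CPM in Type I blastoids against 248 CPM in T09-EPSC (log2 ratio -4.66), while the medium supplied FGF4 protein. Receptors moved in opposite directions: Fgfr1 had 48.8 CPM in Type I blastoids against 156 CPM in T09-EPSC (log2 ratio -1.67), whereas Fgfr2, Fgfr3 and Fgfr4 were higher (2.08, 2.84 and 3.97). Of 13 feedback genes 6 were lower and 3 higher. The ERK targets Etv4 and Etv5 were lower (-1.42 and -1.93) and Spry4 had 14.8 CPM in Type I blastoids against 59.9 CPM in T09-EPSC (log2 ratio -2.02), whereas Dusp6, another such target, was not called (-0.32). Dusp4 was higher, with 35.9 CPM in Type I blastoids against 6.32 CPM in T09-EPSC (log2 ratio 2.49). Day 2 siNT blastoids held the highest values of the libraries set side by side for Spry4 (153 CPM), Etv4 (186 CPM) and Dusp6 (109 CPM).

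Several LIF signalling genes fell. Of 13 tested, 6 were lower and 1 was higher. The feedback inhibitor Socs3 had 7.88 CPM in Type I blastoids against 169 CPM in T09-EPSC (log2 ratio -4.41, 95% interval -4.59 to -4.25), and untreated EPSC held 64.5 CPM. The NF-kB co-factor gene Bcl3 had 6.83 CPM in Type I blastoids against 82.2 CPM in T09-EPSC (log2 ratio -3.58), and the kinase gene Pim1 had 16.5 CPM in Type I blastoids against 92.2 CPM in T09-EPSC (log2 ratio -2.48). The receptor gene Lifr was lower (-1.15), and the transcription factor Stat3 itself was not called (-0.56). Jak2 was the 1 higher gene (1.82).

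Nodal and BMP genes moved both ways. Of 43 tested, 20 were higher and 12 lower. The Nodal inhibitors Lefty1 and Lefty2, which are also its targets, were among the lower genes, Lefty1 with 0.362 CPM in Type I blastoids against 71.1 CPM in T09-EPSC (log2 ratio -7.42) and Lefty2 with 0.502 CPM in Type I blastoids against 63.4 CPM in T09-EPSC (log2 ratio -6.84). The activin subunit Inhbb had 0.195 CPM in Type I blastoids against 88.5 CPM in T09-EPSC (log2 ratio -8.48), and the co-receptor Tdgf1 had 66.0 CPM in Type I blastoids against 835 CPM in T09-EPSC (log2 ratio -3.66). Nodal itself was lower by less (-1.64). Bmp4 was lower, with 9.84 CPM in Type I blastoids against 39.7 CPM in T09-EPSC (log2 ratio -2.01), while the medium supplied BMP4 protein. Bmp2 had 390 counts in Type I blastoids against 2 in T09-EPSC (log2 ratio 6.75, 95% interval 5.92 to 10.83), and Bmp6 had 33.2 CPM in Type I blastoids against 0.371 CPM in T09-EPSC (log2 ratio 6.30). The BMP target genes Id1, Id2 and Id3 were higher (2.77, 5.02 and 4.12), while Smad6 was not called (0.32) and Smad7 was lower (-1.55). The TGF-beta receptor genes Tgfbr2 and Tgfbr3 were higher (4.02 and 4.73). Of 24 Notch and Hedgehog genes 7 were higher and 6 lower, where 22.7% of all 14378 genes were higher and 18.1% lower. The endoderm ligand Ihh had 124 CPM in Type I blastoids against 0.519 CPM in T09-EPSC (log2 ratio 7.76), whereas Gli2, a factor that answers Hedgehog, had 1.81 CPM in Type I blastoids against 67.4 CPM in T09-EPSC (log2 ratio -5.18).

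**Figure D3:**
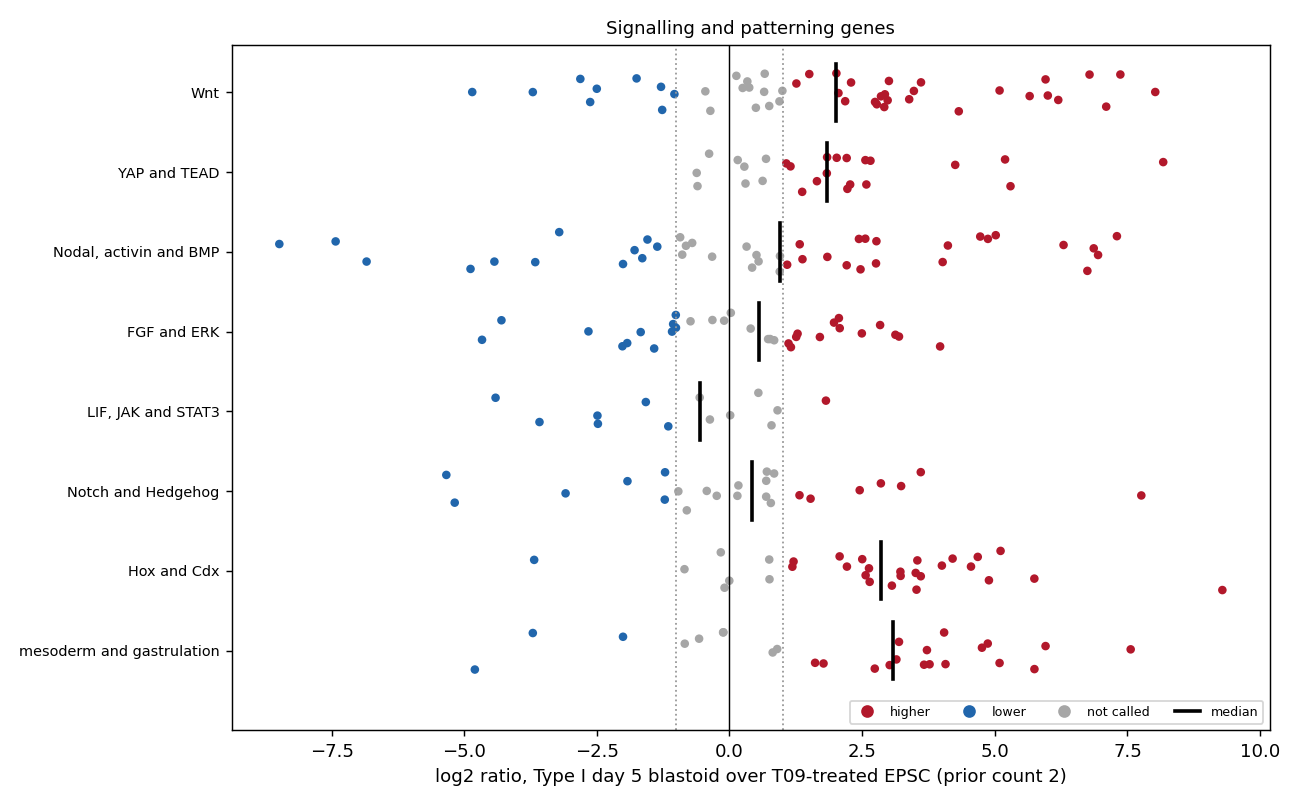
Log2 ratio of Type I blastoids over T09-EPSC (x axis) for the tested genes of 8 signalling and patterning lists, 1 point per gene, with points spread vertically at random, a bar at each list's median and dotted lines at 2-fold. The Wnt, YAP, Hox and mesoderm medians lie right of the 2-fold line, while the LIF list has a median of -0.56 and 1 higher gene.

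Genes of gastrulation and of the body axis mostly rose. Of 26 mesoderm and gastrulation genes, 17 were higher and 3 lower (median 3.08). Brachyury (T), the primitive streak factor with the TCF word shown above, had 24.7 CPM in Type I blastoids against 0.346 CPM in T09-EPSC (log2 ratio 5.96), and Type III blastoids held 46.5 CPM. The retinoic acid-degrading enzyme gene Cyp26a1 had 98.5 CPM in Type I blastoids against 0.469 CPM in T09-EPSC (log2 ratio 7.56). Evx1 had 242 counts in Type I blastoids against 3 in T09-EPSC (log2 ratio 5.75, 95% interval 4.94 to 8.80), and Msgn1, a factor of presomitic mesoderm, had 53 counts in Type I blastoids against 0 in T09-EPSC, at least 19.9-fold higher. Mixl1 and Tbx6 were not called, and Gsc, of the organizer, was lower with 2 counts in Type I blastoids against 55 in T09-EPSC (log2 ratio -3.71, 95% interval -7.69 to -2.69). Hox genes rose in each of the 4 clusters, and 23 of 30 Hox and Cdx genes were higher and 1 lower. No tested Hox gene passed 8.28 CPM in either library, the level of Hoxc13 in T09-EPSC. Hoxb4 had 7.58 CPM in Type I blastoids against 0.618 CPM in T09-EPSC (log2 ratio 3.51), Hoxc9 had 4.43 CPM in Type I blastoids against 0.0988 CPM in T09-EPSC (log2 ratio 4.89), Hoxd9 had 5.02 CPM in Type I blastoids against 0.222 CPM in T09-EPSC (log2 ratio 4.21), and Hoxb2 had 99 counts in Type I blastoids against 0 in T09-EPSC, at least 37.2-fold higher. Members that were not called included Hoxa4, Hoxb9, Hoxc13 and Hoxd13 (-0.85 to 0.75), and Hoxb13 was the lower one, with 2 counts in Type I blastoids against 54 in T09-EPSC (log2 ratio -3.68, 95% interval -7.66 to -2.66).

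Neural genes moved both ways, 9 of 17 higher and 7 lower. The progenitor factors Sox1 and Pax6 were lower, Sox1 with 2.4 CPM in Type I blastoids against 31.8 CPM in T09-EPSC (log2 ratio -3.70) and Pax6 with 0.195 CPM in Type I blastoids against 12.1 CPM in T09-EPSC (log2 ratio -5.62). The neuronal tubulin gene Tubb3 had 2.45 CPM in Type I blastoids against 156 CPM in T09-EPSC (log2 ratio -5.96). Neurofilament genes went up, Nefl with 215 CPM in Type I blastoids against 4.57 CPM in T09-EPSC (log2 ratio 5.54) and Nefm with 19.7 CPM in Type I blastoids against 0.42 CPM in T09-EPSC (log2 ratio 5.39). Of the 9 tested blood and immune markers all were higher, among them the red cell gene Alas2 and the macrophage genes Csf1r and Cd68. Embryonic globin genes are members of a gene family, and how reads shared between members were counted is not given. Hbb-bh1 had 747 counts in Type I blastoids against 0 in T09-EPSC, at least 281-fold higher, and Hba-x had 493 counts in Type I blastoids against 0 in T09-EPSC, at least 185-fold higher. Relative to Type III blastoids, 4 of the 9 blood and immune markers were higher and 0 lower, where 1.93% of 13907 genes were higher and 5.75% lower. Adult globins, the leukocyte gene Ptprc and the macrophage gene Lyz2 had under 20 counts. Mesenchyme genes gave 8 of 18 higher and 5 lower. Against untreated EPSC the higher genes Myl9 (0.96), Col5a1 (0.61) and Thy1 (-0.015) were under the 2-fold threshold. Loxl2, Col6a1, Col1a2, Cnn1 and Col6a2 were above it (1.89 to 4.87). Acta2, smooth muscle actin, had 0.139 CPM in Type I blastoids against 6.35 CPM in T09-EPSC (log2 ratio -5.06), and the collagen cross-linking enzyme gene Loxl2 had 581 CPM in Type I blastoids against 9.71 CPM in T09-EPSC (log2 ratio 5.90).

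LXR-linked genes gave no common direction between Type I blastoids and T09-EPSC, with 6 of 14 higher and 1 lower. Between T09-EPSC and untreated EPSC, which share the first library with the comparison of Type I blastoids, 5 of 13 LXR and RXR genes were higher and 0 lower, where 4.19% of 13632 genes were called, 0.895% higher and 3.29% lower. Abca1, the cholesterol exporter and best known LXR target, had 207 CPM in Type I blastoids against 211 CPM in T09-EPSC (log2 ratio -0.03, 95% interval -0.07 to 0.02) and was not called. The same gene had 5.38 CPM in Type III blastoids, 3.4 CPM in day 2 siNT blastoids and 18.3 CPM in untreated EPSC. Its value in Type I blastoids was above those of the other 3 libraries just named. Abcg1, a second exporter, was lower in Type I blastoids, with 18.7 CPM in Type I blastoids against 60.2 CPM in T09-EPSC (log2 ratio -1.69), and had 1.61 CPM in Type III blastoids and 1.86 CPM in untreated EPSC. Mylip, a ubiquitin ligase gene induced by LXR, was higher, with 52.0 CPM in Type I blastoids against 19.5 CPM in T09-EPSC (log2 ratio 1.41), and had 20.2 CPM in Type III blastoids. Srebf1, the lipogenic factor induced by LXR, had 283 CPM in Type I blastoids and 289 CPM in T09-EPSC, and 86.8 CPM in Type III blastoids. The receptor gene Nr1h2 was not called (-0.80), and Nr1h3 was low in both (0.641 CPM in Type I blastoids and 0.741 CPM in T09-EPSC). Between Type I and Type III blastoids 4 of 14 LXR and RXR genes were higher and 0 lower, where 1.93% of 13907 genes were higher and 5.75% lower. Whether agonist carried over, or how long the seeded EPSC had been treated, was not tested and is not given in the labels.

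**Figure D4:**
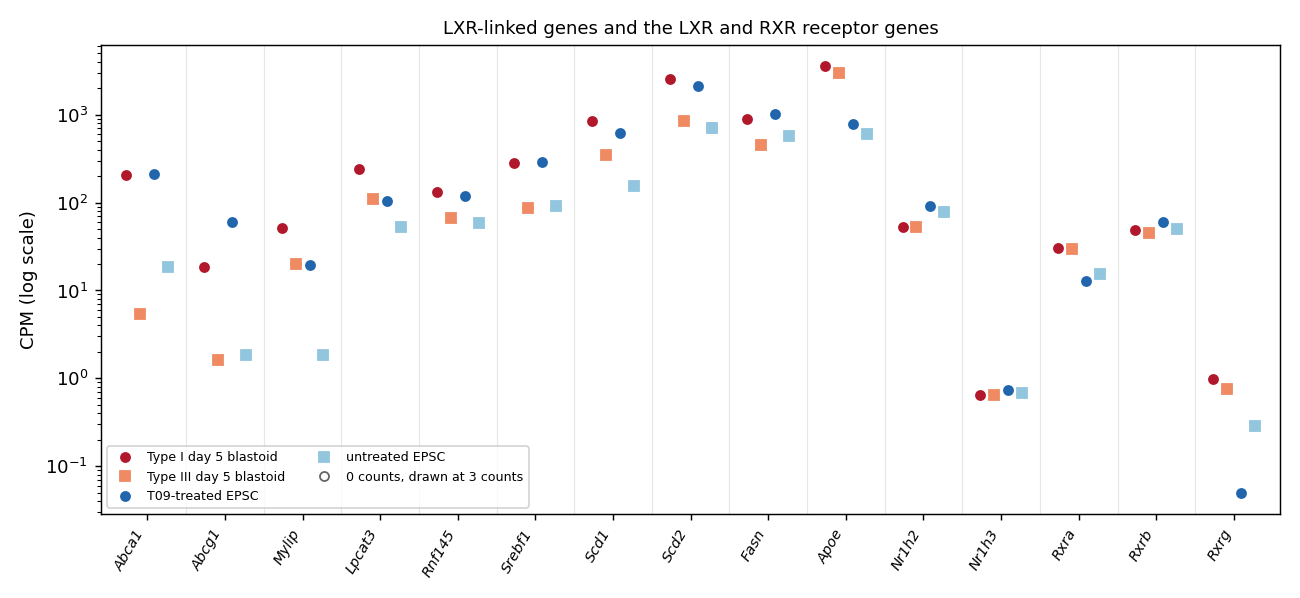
CPM (log y axis) of LXR-linked genes and of the LXR and RXR receptor genes in Type I and Type III day 5 blastoids, T09-treated EPSC and untreated EPSC, 1 library each. Abca1 lies at 207 CPM in Type I blastoids and 211 CPM in T09-EPSC, and at 5.38 CPM in Type III blastoids and 18.3 CPM in untreated EPSC.

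Fatty acid synthesis genes gave no common direction. Of 24 such genes 7 were higher, 4 lower and 13 not called, with a median log2 ratio of 0.01. Over all 14378 genes 22.7% were higher and 18.1% lower. Fatty acid synthase (Fasn) had 894 CPM in Type I blastoids and 1018 CPM in T09-EPSC and was not called. The desaturase gene Scd2, one of several close copies, had 2546 CPM in Type I blastoids and 2108 CPM in T09-EPSC and was not called either. Me1, which supplies NADPH, had 443 CPM in Type I blastoids against 44.3 CPM in T09-EPSC (log2 ratio 3.32). Of 28 genes of fatty acid binding and oxidation 11 were higher and 3 lower. The gate of mitochondrial oxidation Cpt1a had 3.18 CPM in Type I blastoids against 248 CPM in T09-EPSC (log2 ratio -6.27, 95% interval -6.57 to -6.02), whereas Cpt2 and Acadl, later in the same pathway, were higher (1.46 and 2.18). The triglyceride enzyme gene Dgat2 had 46.8 CPM in Type I blastoids against 2.47 CPM in T09-EPSC (log2 ratio 4.21). Of 19 cholesterol synthesis genes 2 were higher and 0 lower. Of 11 genes of uptake and control 5 were higher and 0 lower: Insig1, which holds back sterol synthesis, had 636 CPM in Type I blastoids against 104 CPM in T09-EPSC (log2 ratio 2.61), and Stard4, a sterol carrier, had 323 CPM in Type I blastoids against 71.6 CPM in T09-EPSC (log2 ratio 2.17).

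Many glycolysis and hypoxia genes rose, and no respiratory chain gene did. Of 41 glycolysis and hypoxia genes 23 were higher and 6 lower, and of 57 respiratory chain genes 0 were higher and 6 lower. The glucose transporter gene Slc2a3 had 4739 CPM in Type I blastoids against 1160.5 CPM in T09-EPSC (log2 ratio 2.03), and the lactate exporter gene Slc16a1 had 1332 CPM in Type I blastoids against 166 CPM in T09-EPSC (log2 ratio 3.01). Lactate dehydrogenase subunits moved in opposite directions: Ldha had 2122 CPM in Type I blastoids against 362 CPM in T09-EPSC (log2 ratio 2.55), and Ldhb had 68.1 CPM in Type I blastoids against 368 CPM in T09-EPSC (log2 ratio -2.43). The hexokinase genes Hk1 and Hk2 and the platelet-type phosphofructokinase Pfkp were lower (-1.80, -1.45 and -2.20), whereas the liver-type Pfkl had 592 CPM in Type I blastoids against 117 CPM in T09-EPSC (log2 ratio 2.34). Gapdh was not called (-0.08). Among hypoxia response genes, the mitophagy gene Bnip3 had 264 CPM in Type I blastoids against 12.1 CPM in T09-EPSC (log2 ratio 4.45), and Ndrg1 had 62.4 CPM in Type I blastoids against 5.9 CPM in T09-EPSC (log2 ratio 3.39). Untreated EPSC held 30.8 CPM of Bnip3 and 18.9 CPM of Ndrg1, and 7 of the 41 genes were lower in T09-EPSC than in untreated EPSC. The word ACGTG was present in 52.8% of the 36 list promoters, in 66.7% of the 18 higher members among them and in 25.3% of all promoters. This list was chosen to hold hypoxia response genes, so its share too can come from the choice. In the respiratory chain the median was -0.46, and Cox7a1, an isoform of a cytochrome c oxidase subunit used in muscle, had the lowest ratio, with 2.2 CPM in Type I blastoids against 9.21 CPM in T09-EPSC (log2 ratio -2.04).

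Of 41 ribosomal protein genes 40 were not called and their median was -0.05; the 1 lower was Rpl39l, a near-identical germ cell copy whose counts are uncertain, with 4.4 CPM in Type I blastoids against 99.9 CPM in T09-EPSC (log2 ratio -4.49). Of 40 cell cycle genes 5 were higher and 8 lower (median -0.61), where 22.7% of all 14378 genes were higher and 18.1% lower. The replication helicase genes Mcm2, Mcm3 and Mcm5 were lower (-1.59, -1.21 and -1.28) and Mki67 was not called (0.44). D-type cyclins moved in opposite directions: Ccnd2 had 94.9 CPM in Type I blastoids against 0.42 CPM in T09-EPSC (log2 ratio 7.65), and Ccnd1 had 33.7 CPM in Type I blastoids against 113 CPM in T09-EPSC (log2 ratio -1.75). Of 6 listed cell cycle inhibitors, Cdkn1a, Cdkn1c, Cdkn2a and Cdkn2b were higher (2.20 to 2.94), and Cdkn1b and Cdkn2c were not called (-0.31 and 0.87). The p53 gene Trp53 was lower, with 113 CPM in Type I blastoids against 465 CPM in T09-EPSC (log2 ratio -2.05). Of 21 listed p53-pathway genes, Trp53 included, 7 were higher and 4 lower, where 22.7% of all 14378 genes were higher and 18.1% lower. ATF4 and ER stress genes gave 6 of 38 higher and 11 lower, beside the same shares of all genes. The amino acid transporter genes Slc7a3 and Slc7a5 were lower (-3.73 and -1.73).

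**Figure D5:**
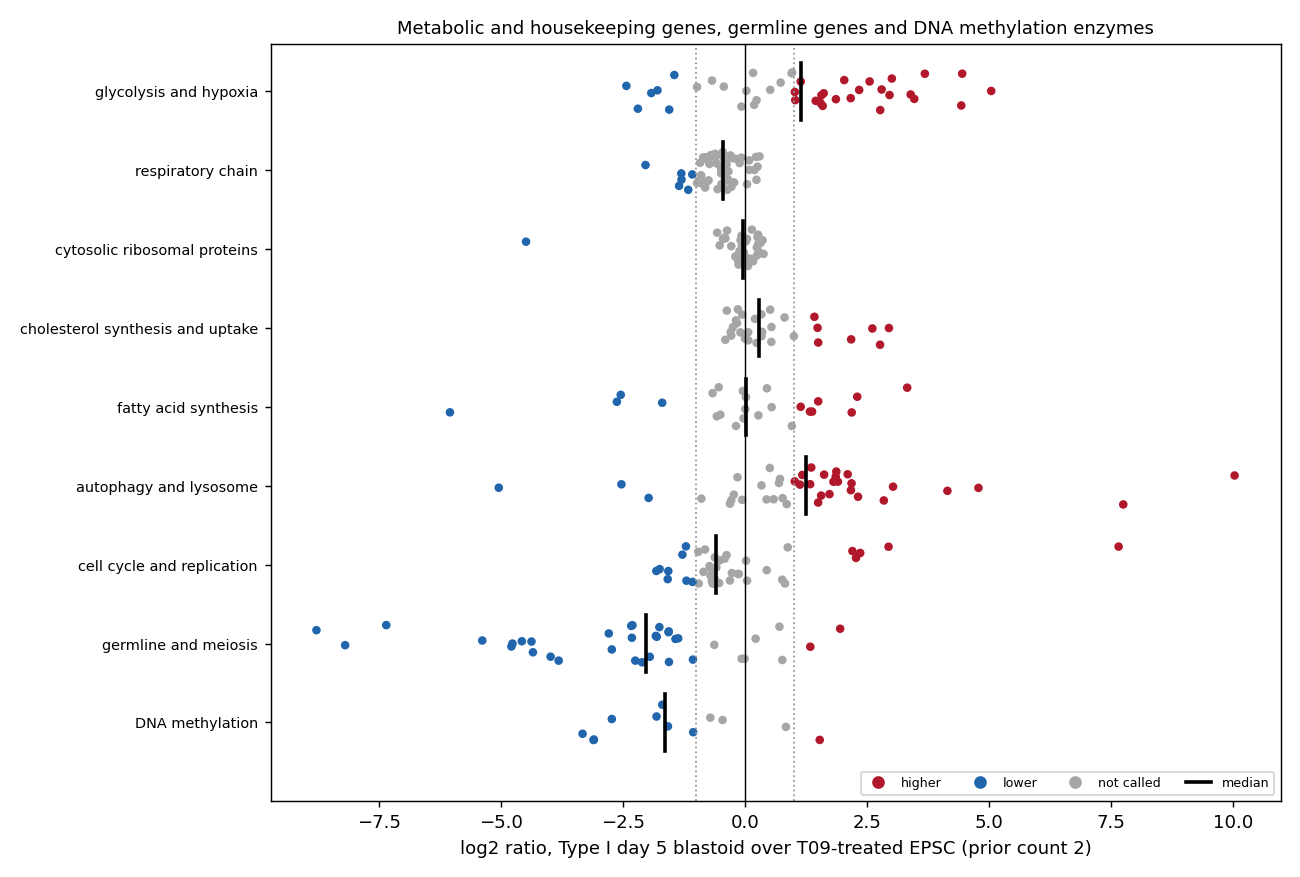
Log2 ratio of Type I blastoids over T09-EPSC (x axis) for the tested genes of 9 metabolic, housekeeping and germline lists, 1 point per gene, with points spread vertically at random, a bar at each list's median and dotted lines at 2-fold. Ribosomal protein genes gather around a median of -0.05 with Rpl39l apart at -4.49, and lysosomal genes extend up to Ctsh at 10.03.

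Most lysosomal genes rose. Of 25 lysosomal enzymes and membrane genes, 17 were higher and 0 lower, and with the autophagy genes 23 of 40 were higher and 3 lower. The protease gene Ctsh had 493 CPM in Type I blastoids against 0.42 CPM in T09-EPSC (log2 ratio 10.03), and the asparaginyl protease gene Lgmn had 1819 CPM in Type I blastoids against 66.2 CPM in T09-EPSC (log2 ratio 4.78). Another cathepsin gene, Ctsd, had 1158 CPM in Type I blastoids against 330.4 CPM in T09-EPSC (log2 ratio 1.81). Of the MiT factors, which control lysosome genes, Tfec had 592 counts in Type I blastoids against 1 in T09-EPSC (log2 ratio 7.75, 95% interval 6.90 to 14.69), Mitf had 6.19 CPM in Type I blastoids against 36.1 CPM in T09-EPSC (log2 ratio -2.53), and Tfeb was not called (0.51). Of the autophagy receptors, Optn and Sqstm1 were higher (2.18 and 1.33) and Calcoco2 had 3.98 CPM in Type I blastoids against 133 CPM in T09-EPSC (log2 ratio -5.05).

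Imprinted genes, expressed from 1 parental copy, rose in 22 of 39 with 3 lower (median 2.17). H19, a maternally expressed noncoding RNA abundant in endoderm and placenta, had 4068 CPM in Type I blastoids against 7.34 CPM in T09-EPSC (log2 ratio 9.10, 95% interval 8.95 to 9.28). Its neighbour Igf2, a paternally expressed growth factor, had 86.8 CPM in Type I blastoids against 0.692 CPM in T09-EPSC (log2 ratio 6.87). The paternally expressed zinc finger gene Peg3 had 939 CPM in Type I blastoids against 40.7 CPM in T09-EPSC (log2 ratio 4.53), and the maternally expressed RNA Meg3 had 1702 CPM in Type I blastoids against 194 CPM in T09-EPSC (log2 ratio 3.13). Igf2r, which clears Igf2, was lower (-1.11), while Airn, the noncoding RNA that overlaps it on the other strand, had 272 counts in Type I blastoids against 1 in T09-EPSC (log2 ratio 6.63, 95% interval 5.77 to 13.57). Since the strand setting of the counts is not given in the sources used here, reads of Igf2r and Airn cannot be told apart with certainty.

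Immediate-early genes were higher in 9 of 15 and lower in 2, but part of this rested on the T09-EPSC library. Egr1 had 28.9 CPM in Type I blastoids against 3.04 CPM in T09-EPSC (log2 ratio 3.23), and Fos had 5.52 CPM in Type I blastoids against 1.26 CPM in T09-EPSC (log2 ratio 2.09). Untreated EPSC held 72.2 CPM of Egr1 and 28.7 CPM of Fos, so that both were lower in Type I blastoids when set against that library. Jun had 65.6 CPM in Type I blastoids against 4.84 CPM in T09-EPSC (log2 ratio 3.74), and Fosl2 had 20.6 CPM in Type I blastoids against 0.346 CPM in T09-EPSC (log2 ratio 5.70). Untreated EPSC held 9.22 CPM of Jun and 0.759 CPM of Fosl2, below the values of Type I blastoids.

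Genes of the antiviral and antigen-presentation lists moved both ways. Of 24 tested, 11 were higher and 6 lower. The antigen-presenting genes H2-K1, one of several close copies, and B2m were higher, H2-K1 with 249 CPM in Type I blastoids against 24.1 CPM in T09-EPSC (log2 ratio 3.37) and B2m with 171 CPM in Type I blastoids against 17.1 CPM in T09-EPSC (log2 ratio 3.31). The membrane antiviral genes Ifitm2 and Ifitm3, whose copies are closely alike, were lower (-2.60 and -3.19), and the stem cell antigen gene Ly6a had 0.306 CPM in Type I blastoids against 31.6 CPM in T09-EPSC (log2 ratio -6.46). Metal genes gave 8 of 19 higher and 5 lower. The zinc and manganese importer Slc39a8 had 176 CPM in Type I blastoids against 0.445 CPM in T09-EPSC (log2 ratio 8.47), and the iron exporter Slc40a1 had 42.4 CPM in Type I blastoids against 0.815 CPM in T09-EPSC (log2 ratio 5.61), whereas the ferrireductase gene Steap3 had 5.15 CPM in Type I blastoids against 109 CPM in T09-EPSC (log2 ratio -4.38) and the transferrin receptor gene Tfrc was lower (-1.48). Of 33 nutrient transporters 11 were higher and 8 lower, where 22.7% of all 14378 genes were higher and 18.1% lower. The amino acid carrier Slc7a9 had 22.8 CPM in Type I blastoids against 0.148 CPM in T09-EPSC (log2 ratio 6.83). The glutamate carrier Slc1a1 had 1.11 CPM in Type I blastoids against 31.4 CPM in T09-EPSC (log2 ratio -4.75).

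Families were also read over the whole table by the letters of the symbol before its first digit. Of 369 families with 6 or more tested genes, 18 had at least 60% of members higher and 8 at least 60% lower. Beside Wnt (9 of 10) and the Hox clusters, the higher ones included Adamts metalloproteases (9 of 15), Lpar receptors for lysophosphatidic acid (5 of 6), Stard lipid carriers (5 of 8) and Igfbp proteins that bind insulin-like growth factors (5 of 7). Adamts1 had 21.7 CPM in Type I blastoids against 0.124 CPM in T09-EPSC (log2 ratio 6.95), Lpar6 had 59.8 CPM in Type I blastoids against 0.618 CPM in T09-EPSC (log2 ratio 6.48), and Stard10 had 93.0 CPM in Type I blastoids against 1.9 CPM in T09-EPSC (log2 ratio 5.57). Igfbp1 had 3196 counts in Type I blastoids against 1 in T09-EPSC (log2 ratio 10.17, 95% interval 9.34 to 17.12), whereas Igfbp2 had 45.2 CPM in Type I blastoids against 349 CPM in T09-EPSC (log2 ratio -2.95). The lower families included Platr, noncoding transcripts of pluripotent cells (8 of 11), Pou factors (6 of 9), reproductive homeobox genes of the Rhox cluster (5 of 7) and Nlrp genes (4 of 6), which in the mouse include maternal oocyte genes. Platr10 had 8.3 CPM in Type I blastoids against 67.6 CPM in T09-EPSC (log2 ratio -3.02), and Pou4f2 had 0.306 CPM in Type I blastoids against 12.7 CPM in T09-EPSC (log2 ratio -5.15). Of the 365 Zfp zinc finger genes 12.6% were higher and 15.1% lower, and of the 270 Slc transporter genes 33.3% were higher and 20.4% lower.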

How the data were processed

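The authors deposited 1 table of raw read counts per gene for 8 mouse RNA-seq libraries, made with a directional kit per the labels' protocols. The submitters' processing notes name STAR, HTSeq, Cuffnorm and build mm9, without their roles or versions; the strand setting of the counting is not given in the sources used here. Counts were scaled with TMM factors over the 8 libraries (edgeR 4.0.16, R 4.3.3) and set as CPM. Log2 ratios of Type I blastoids over T09-EPSC used a prior count of 2. The 95% exact conditional (Clopper-Pearson) intervals came from scipy 1.17.1 in Python 3.11.15. Genes with 20 or more counts in 1 of the 2 libraries were compared, and called at a 2-fold ratio whose interval excluded 1. With 1 library a side there is no p-value. A gene with 0 counts was given a bound from 3 counts per library. The procedure was tested on simulated data. Other scalings, filters, fold thresholds, prior counts, an added spread and untreated EPSC as the seeding state were tried. Named genes were members of 45 lists, the 25 higher and 25 lower genes with interval bounds furthest from 0 (50 or more counts in 1 library, unnamed and predicted genes left out), and symbol families; some genes are not reported here. The comparison, lists and members were chosen with earlier results of these data known. RefSeq promoters (GRCm38.p6) were searched on both strands for the TEAD, TCF and hypoxia words given above, and for words of GATA factors (AGATAA), of STAT factors (TTCCNNGAA) and of the sterol regulatory element. The GATA word was found in 1 of 15 promoters of primitive endoderm regulators and 0 of 17 basement membrane promoters (6.11% of all), the STAT word in 0 of 12 LIF promoters (4.36%) and the sterol element in 0 of 20 cholesterol promoters (0.0447%).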

Additional observations from a re-analysis of the deposited data

How the results depend on the processing

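The counts of 3266 higher and 2602 lower genes depended on the fold threshold by construction: 1798 genes were higher and 1316 lower at 4-fold, and 4030 were lower at 1.5-fold. With median-of-ratios size factors, TMM over the 2 libraries alone or library totals, 3178 to 3373 genes were higher and 2487 to 2717 lower, and no named gene that was called changed direction; 0 to 8 of 1138 lost their call. A filter of 100 counts gave 2377 higher and 1906 lower genes, and no filter 3897 and 3098. An assumed biological coefficient of variation of 0.2 left 3240 higher and 2576 lower. With untreated EPSC in place of T09-EPSC, 3049 genes were higher and 2668 lower, of which 2826 and 2234 were shared with the comparison above. Under that setting 54 of 1135 named genes lost their call, 33 gained one, and 7 that had been called changed sign: Abcg1 had a log2 ratio of 3.29, Adm -0.17, Egr1 -1.32, Fgf17 0.27, Fos -2.37, Fosb -0.39 and Thy1 -0.015. Abca1 and Srebf1, not called against T09-EPSC, were higher (3.50 and 1.64). The cause was not tested. No paired analysis was possible because each group had 1 library, and for the same reason no library could be left out. Genes with few counts are limited by depth, and 889 of the higher and 696 of the lower genes had under 100 counts in both libraries.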

Other observations

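Some of the 25 higher genes with interval bounds furthest from 0 stood outside the gene groups described above, and 8 of them follow. The secreted protease gene Prss12 had 4342 counts in Type I blastoids against 0 in T09-EPSC, at least 1632-fold higher, and the aminopeptidase gene Enpep had 2014 counts in Type I blastoids against 0 in T09-EPSC, at least 757-fold higher. Rfx6, a factor of the gut and pancreas, had 1715 counts in Type I blastoids against 0 in T09-EPSC, at least 645-fold higher, and Maf had 1052 counts in Type I blastoids against 0 in T09-EPSC, at least 395-fold higher. The chloride channel-like gene Clic6 had 477 CPM in Type I blastoids against 0.222 CPM in T09-EPSC (log2 ratio 10.76), and the adenosine receptor gene Adora1 had 4547 counts in Type I blastoids against 2 in T09-EPSC (log2 ratio 10.28, 95% interval 9.47 to 14.37). The membrane carbonic anhydrase Car4 had 352 CPM in Type I blastoids against 0.692 CPM in T09-EPSC (log2 ratio 8.89), and the cadherin gene Cdh6 had 168 CPM in Type I blastoids against 0.247 CPM in T09-EPSC (log2 ratio 9.13). All 8 had lower values in untreated EPSC than in Type III blastoids, which held 75.8 CPM of Prss12 and 333 CPM of Clic6.

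On the lower side, the unconventional myosin gene Myo1f had 0 counts in Type I blastoids against 2661 in T09-EPSC, at least 786-fold lower, and the adenylate kinase gene Ak7 had 0 counts in Type I blastoids against 1684 in T09-EPSC, at least 498-fold lower. The secreted matrix protein gene Spp1, osteopontin, had 1.37 CPM in Type I blastoids against 542 CPM in T09-EPSC (log2 ratio -8.58). Khdc3, an oocyte and stem cell gene, had 0.251 CPM in Type I blastoids against 82.0 CPM in T09-EPSC (log2 ratio -8.08), and Pramel6, which has close copies, had 0 counts in Type I blastoids against 560 in T09-EPSC, at least 166-fold lower. The junction gene Jam2 had 2.12 CPM in Type I blastoids against 311 CPM in T09-EPSC (log2 ratio -7.16), and the kinase gene Pdk4, which holds back pyruvate oxidation, had 0 counts in Type I blastoids against 285 in T09-EPSC, at least 84.2-fold lower. Calcium-binding S100 and annexin genes were divided, 8 of 17 higher and 4 lower, S100g with 556 counts in Type I blastoids against 0 in T09-EPSC, at least 209-fold higher, and S100a6 with 0.306 CPM in Type I blastoids against 3.51 CPM in T09-EPSC (log2 ratio -3.31). Retinoid genes gave 5 of 12 higher and 1 lower, the retinol dehydrogenase gene Rdh10 with 64.1 CPM in Type I blastoids against 5.46 CPM in T09-EPSC (log2 ratio 3.54) and the receptor gene Rarg with 25.0 CPM in Type I blastoids against 186 CPM in T09-EPSC (log2 ratio -2.89). Among 25 other nuclear receptors 9 were higher and 7 lower, Pparg, a regulator of placenta and fat, with 65 counts in Type I blastoids against 3 in T09-EPSC (log2 ratio 3.88, 95% interval 3.00 to 6.93), and Nr5a2, a pluripotency and liver receptor, with 3.15 CPM in Type I blastoids against 64.2 CPM in T09-EPSC (log2 ratio -4.33).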
